A study of Mus musculus with 6 samples.

Results

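Chromosome 15 of the mouse was examined through 630 genes, which are the Ensembl gene IDs on this chromosome with a mean FPKM (the level of a gene corrected for its exon length and for library size) of at least 0.5 over 6 mammary tumors. They were chosen by position and mean level from 1851 gene IDs on the chromosome, 1126 of which were above 0 in at least 1 tumor, and they are 630 of the 15069 genes tested over the whole genome. The chromosome and 1 tumor, anti-PD-1 replicate 3, were singled out because of the levels measured there, so all values that set this tumor against the others are a description with no test. Of the 630 genes, 511 are protein-coding, 21 are lincRNAs, 19 are processed pseudogenes and 14 are miRNA genes. Just inside the limit were Mir33 and Enpp2 with mean FPKM of 0.502 and 0.504, and just outside it were Shank3 and Gm17057 with 0.496 and 0.489.

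RNAseq was carried out on total tumor RNA, with 3 libraries from IgG-treated and 3 from anti-PD-1-treated NeuT/ATTAC mice. Each library is called a tumor here, although the study also describes pooling of tumor RNA within a group, and the sources do not settle how many tumors went into a library. All mice carried MMTV-NeuT, a transgene in which the MMTV promoter drives Erbb2 in the mammary gland, and FAT-ATTAC, brought in from C57BL/6 and crossed into FVB, by which AP20187 kills fat cells. To induce fibrosis, AP20187 was injected at 0.4 mg/kg starting at an age of 6 weeks. An isotype IgG or the anti-PD-1 mAb followed at 100 μg from an age of 8 weeks, given 2 times per week in both groups. The labels do not say whether the 3 samples of a group came from separate mice, so p-values measure only the spread between these samples, which may be technical.

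Chromosome 15 carries Myc, the transcription factor that drives ribosome production, metabolism and division, and next to it Pvt1, a long noncoding RNA gene. It also holds a cluster of type II keratin genes, the Hoxc genes, the Ly6 family of small surface proteins, and Lalba, which encodes a milk protein. DNA copy number was not measured in these tumors.

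The recovered reads came to between 21311060 and 24173412 per tumor, and the median-of-ratios factors lay between 1.00 and 1.01. Epithelial genes were high in all 6 tumors (the lowest sum of 8 markers was 2227 FPKM), whereas none of the 6 T cell markers reached a mean FPKM of 0.5. The sum of 4 skeletal muscle markers was 0.104, 110 and 3.80 FPKM in the IgG tumors (replicates 1, 2 and 3 in this order, as in all lists of values here) and 62.6, 116 and 0.295 FPKM in the anti-PD-1 tumors. In bulk tumors, fewer cells of a type and less RNA per cell cannot be told apart.

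Genes of chromosome 15 were higher in anti-PD-1 replicate 3 than in the other tumors, with a positive median in each stretch of 10 Mb but by differing amounts. For each gene and tumor, the difference was taken as log2(FPKM + 1) in that tumor minus the median of the other 5 tumors, and the median over all tested genes was subtracted. The median difference of the 630 genes was -0.10, -0.16 and 0.02 in IgG replicates 1 to 3, -0.03 and -0.04 in anti-PD-1 replicates 1 and 2, and 0.40 in anti-PD-1 replicate 3, with quartiles of 0.18 and 0.64. In that tumor 541 genes were above the median of the other 5 and 89 were below it, a share of 85.9% against 50% of all tested genes. In the other tumors between 35.9% and 52.5% of the genes were above. Differences of 0.5 or more were found for 252 genes (40%, against 12.5% of all tested genes) and of 1 or more for 56 (8.89%, against 3.68%). Only 23 genes (3.65%, against 8.5%) were lower by 0.5 or more.

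Anti-PD-1 replicate 3 had the highest level of the 6 tumors in 347 of the 630 genes (55.1%), against 16% of all tested genes. It had the lowest level in 15 genes (2.38%), against 16.2% of all tested genes. No other tumor was the highest in more than 89 genes of the chromosome. Of all recovered reads, 6.69% lay on chromosome 15 in anti-PD-1 replicate 3 and between 4.44% and 5.56% in the other tumors.

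**Figure D1:**
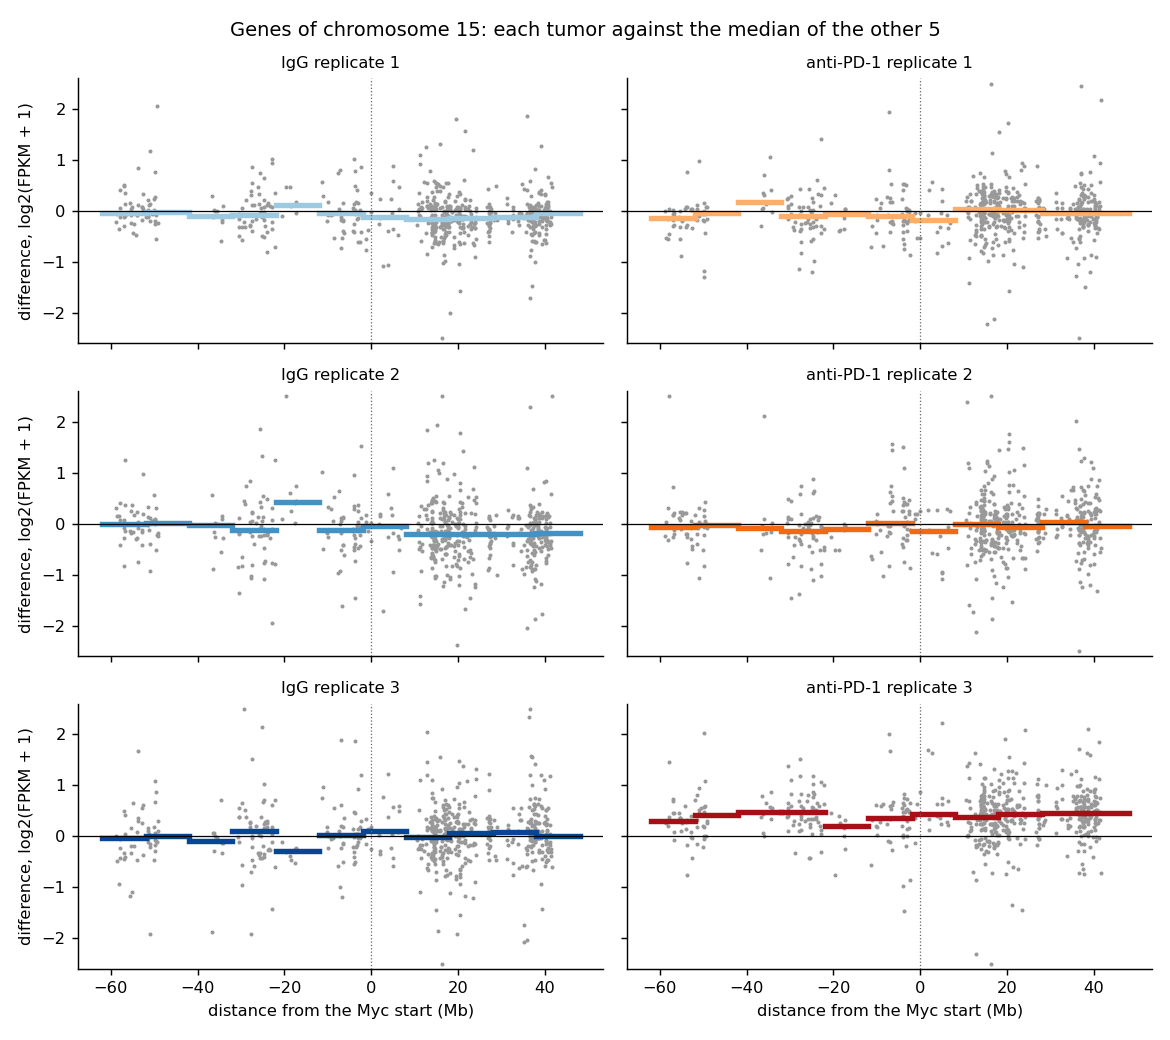
Difference of each gene of chromosome 15 from the median of the other 5 tumors, in log2(FPKM + 1), against its distance from the start of Myc in Mb, with 1 panel per tumor. Grey points are genes, with 13 values beyond 2.5 drawn at that limit, and colored lines are medians in bins of 10 Mb, which lie between 0.20 and 0.48 in anti-PD-1 replicate 3.

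The chromosome was divided into 11 bins of 10 Mb, with 8 to 159 genes each. In anti-PD-1 replicate 3 the bin medians ran from 0.20 to 0.48, and they were 0.29 in the first bin, 0.44 in the bin that holds Myc and 0.47 in the last. This tumor had the highest median in every bin but the one from 40 to 50 Mb, which holds 8 genes and in which IgG replicate 2 reached 0.43. Over 606 running windows of 25 neighboring genes, its median stayed between 0.12 and 0.65, and the other tumors ranged from -0.37 to 0.37. In 604 windows (99.7%) anti-PD-1 replicate 3 was above all other tumors. The first 25 genes had a median of 0.32 and the last 25 a median of 0.47, so that both ends of the chromosome were raised.

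The window with the smallest difference, from 72913357 to 75616679 on GRCm38, holds the Ly6 cluster. The longest run of genes below the other tumors had 5 members, Them6, Lynx1, Ly6d, D730001G18Rik and Ly6k, between 74721204 and 74799986. Before the run in the same window, the differences ranged from -0.70 in Gm15387 to 1.63 in Arc, with Ptk2 at 0.68 and Chrac1 at 0.0049. After it they ranged from -0.19 in Ly6a to 0.38 in Gm39556.

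In anti-PD-1 replicate 3 the other 19 chromosomes with at least 100 tested genes had median differences from -0.26 on chromosome 9 to 0.16 on chromosome 8. Other tumors had shifts of similar size on other chromosomes. On chromosome 4 the medians were 0.48 in IgG replicate 2 and 0.44 in IgG replicate 3, and on chromosome 9 they were 0.44 and 0.45. Anti-PD-1 replicate 2 had a median of -0.35 on chromosome 8.

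**Figure D2:**
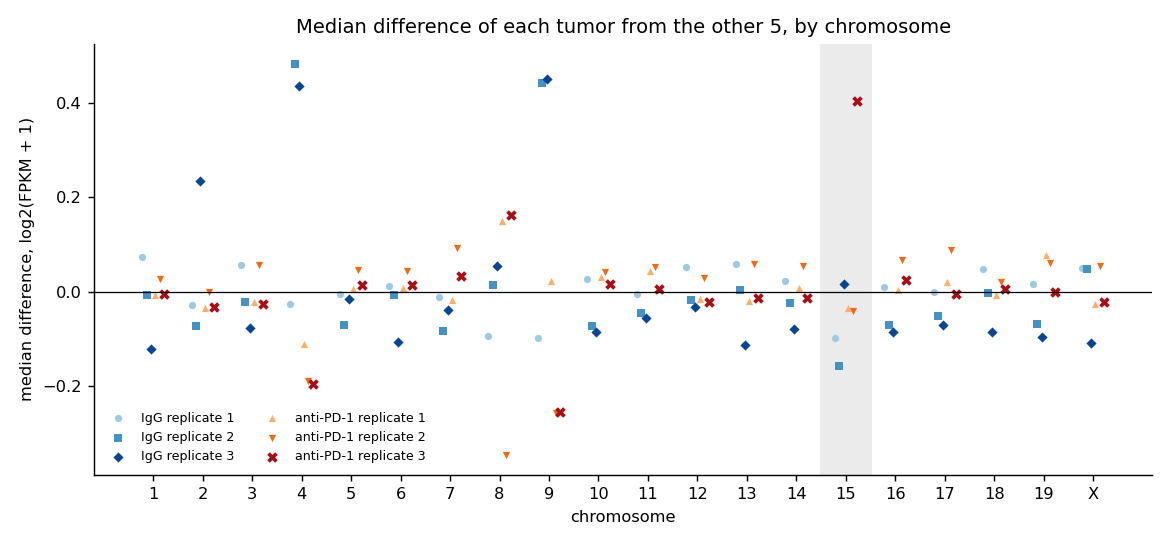
Median difference of each tumor from the median of the other 5 tumors, in log2(FPKM + 1), for the tested genes of each of 20 chromosomes, with 1 symbol per tumor. Anti-PD-1 replicate 3 stands at 0.40 on chromosome 15, where the other tumors lie between -0.16 and 0.02, and IgG replicates 2 and 3 stand apart on chromosomes 4 and 9.

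The size of the difference was read from FPKM ratios in genes whose mean FPKM was 5 or more, where the 1 that is added to each value matters little. In these 349 members the median ratio of anti-PD-1 replicate 3 to the median of the other 5 tumors was 1.39, with quartiles of 1.21 and 1.60. The 7617 genes of other chromosomes at this level had a median ratio of 0.977, with quartiles of 0.836 and 1.15. The SD of the differences at this level was 0.466 on the chromosome and 0.467 off it. It was 0.609 and 0.540 between 0.5 and 2 FPKM, and 0.327 and 0.618 at 50 FPKM or more.

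**Figure D3:**
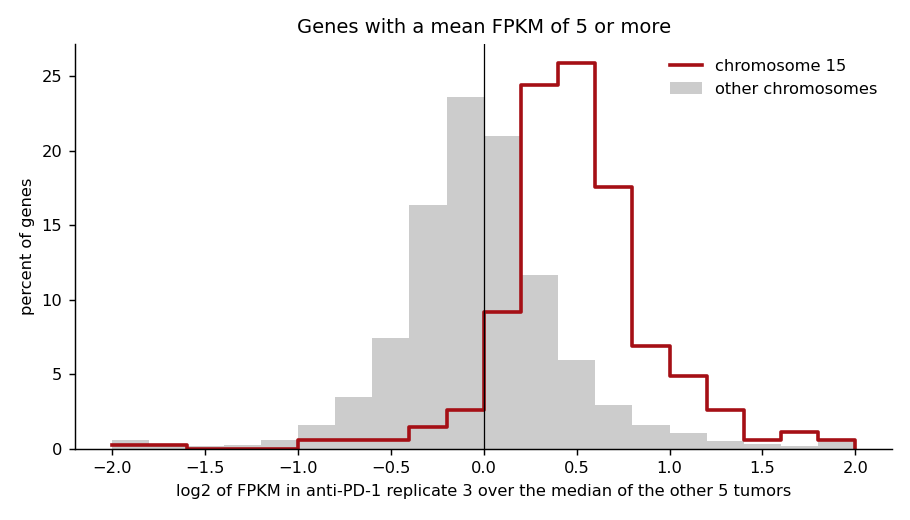
Percent of genes (vertical axis) by the log2 of the FPKM ratio of anti-PD-1 replicate 3 to the median of the other 5 tumors (horizontal axis), for genes whose mean FPKM was 5 or more. The red line is chromosome 15 and the grey bars are other chromosomes, the end bars hold all values beyond the axis, and Pvalb, at 0 FPKM in this tumor, is not drawn; most of the red line lies to the right of 0, as 93.7% of the genes were higher.

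The difference was seen in each class of genes. By mean FPKM, 98% of the 50 genes at 50 or more were higher in anti-PD-1 replicate 3, with a median difference of 0.53. Of the 155 genes between 0.5 and 2 FPKM, 69.0% were higher with a median of 0.25, on a scale that understates the change of low genes. Protein-coding genes had a median of 0.40 and the other genes 0.41. Genes that overlap another annotated gene had 0.41 (348 genes) and those that overlap none had 0.40 (282 genes). With the genes split into 3 equal groups by transcript GC content, the medians from low to high were 0.37, 0.42 and 0.41.

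Of 28 growth and cancer genes on the chromosome, 24 were above the median of the other 5 tumors in anti-PD-1 replicate 3. In this tumor 13 had their highest level and none had its lowest. Over all 630 genes of the chromosome the shares were 85.9% above, 55.1% highest and 2.38% lowest, so these counts are not particular to growth genes. The median difference of the 28 genes was 0.37, against 0.40 for all genes of the chromosome and between -0.17 and 0.01 in the other tumors. Their median was thus close to that of their neighbors.

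Myc (ENSMUSG00000022346, chr15:61985391-61990374, plus strand) was at 22.6, 22.6 and 25.5 FPKM in the IgG and at 22.0, 20.3 and 31.3 FPKM in the anti-PD-1 tumors. Anti-PD-1 replicate 3 was the highest, 1.39-fold above the median of the other tumors, and the other anti-PD-1 tumors were the lowest. The difference of 0.47 was close to the chromosome's median of 0.40. Pvt1 was at 1.81, 1.04 and 1.18 FPKM in the IgG and at 0.810, 1.60 and 2.98 FPKM in the anti-PD-1 tumors, and anti-PD-1 replicate 3 was again the highest (difference 0.87).

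Deptor, an inhibitor of the kinase mTOR, was at 15.4, 17.8 and 74.2 FPKM in the IgG tumors and at 19.3, 26.1 and 63.5 FPKM in the anti-PD-1 tumors. It was high in anti-PD-1 replicate 3 and in IgG replicate 3 alike. Laptm4b, a lysosomal membrane protein, was at 37.7, 17.3 and 22.7 FPKM in the IgG and at 28.3, 43.1 and 65.4 FPKM in the anti-PD-1 tumors, with the highest level in anti-PD-1 replicate 3 (difference 1.18). Ptk2, which encodes focal adhesion kinase, was at 10.1, 7.50 and 9.43 FPKM in the IgG and at 10.7, 11.9 and 16.7 FPKM in the anti-PD-1 tumors. All 3 anti-PD-1 tumors lay above the IgG tumors in Ptk2, and replicate 3 was 1.41-fold above the next.

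Among others that were highest in anti-PD-1 replicate 3 were Trib1, a pseudokinase (0.65), Puf60, a splicing factor (0.63), Hsf1, the heat shock transcription factor (0.49), Ep300, a histone acetyltransferase (0.42), Rictor, a subunit of mTOR complex 2 (0.36) and Ywhaz, a 14-3-3 protein (0.35). Ndrg1, a gene induced by hypoxia, had a difference of 0.63 but was at 17.6 and 25.2 FPKM in IgG replicates 1 and 2 and 18.0 FPKM in anti-PD-1 replicate 3. Its difference from the IgG tumors alone was 0.03. The 0.63 came to 0.39 with IgG replicate 3 left out, or to 0.33 with anti-PD-1 replicate 1 or 2 left out. Small differences were found for Rad21, a cohesin subunit (0.18), Mtdh (0.11), Skp2, a part of the ubiquitin ligase that targets cell cycle inhibitors (0.09), and Atf1, a CREB family factor (0.05), and with each other tumor left out these 4 values ranged from 0.0073 to 0.21.

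Growth genes below the median of the other 5 tumors were Trps1, Pim3, Cbx7 and Sp1. Trps1 (ENSMUSG00000038679, chr15:50654752-50890463, minus strand), a GATA-type transcription factor of the breast epithelium, was at 46.0, 62.2 and 52.2 FPKM in the IgG and at 27.8, 29.4 and 30.6 FPKM in the anti-PD-1 tumors. All 3 anti-PD-1 tumors were below all IgG tumors, and anti-PD-1 replicate 3 was 0.57 below the median of the other 5 but 0.11 above the median of the other 2 anti-PD-1 tumors. The difference was -0.34 without IgG replicate 1 and -0.25 without IgG replicate 2 or 3. Cbx7, a Polycomb protein, was at 2.70, 4.01 and 4.18 FPKM in the IgG and at 2.45, 1.84 and 2.35 FPKM in the anti-PD-1 tumors. Here too the anti-PD-1 tumors were below the IgG tumors (difference of replicate 3, -0.14, and -0.35 to -0.08 with each other tumor left out). Pim3, a kinase, differed by -0.18 and varied from 10.5 to 33.9 FPKM over the tumors. With each other tumor left out its difference ranged from -0.30 to 0.08, so its direction rested on single tumors. The zinc finger factor Sp1 stood at the median of the others.

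**Figure D4:**
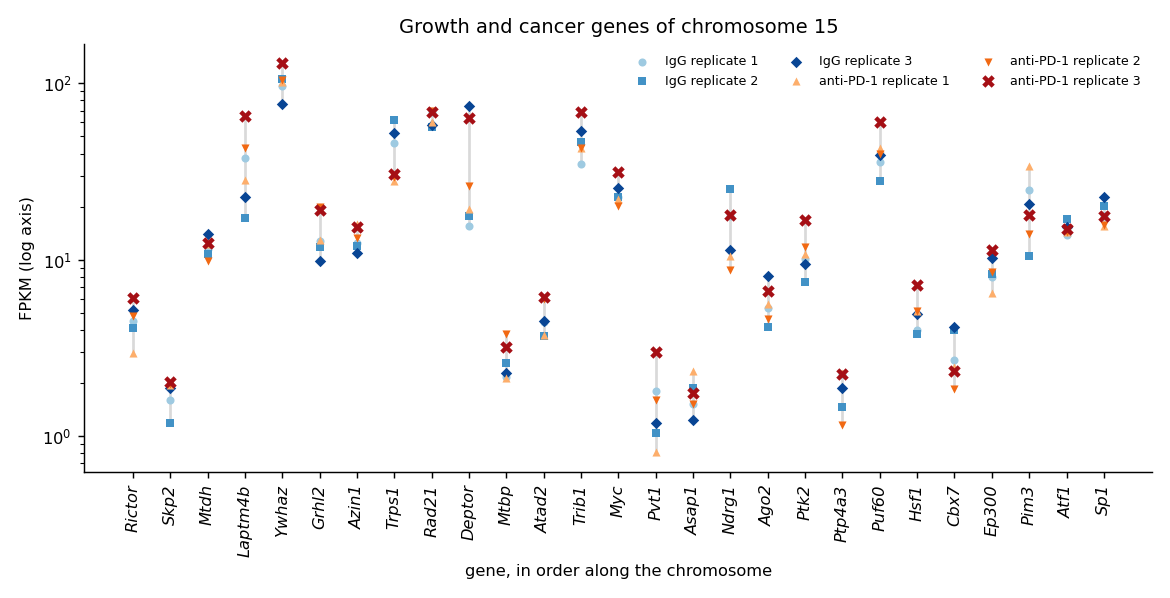
FPKM (log axis) of 27 of the 28 growth and cancer genes in their order along the chromosome, with 1 symbol per tumor. Anti-PD-1 replicate 3 is the highest symbol in 12 of the genes drawn, Myc among them at 31.3 FPKM, and is below the IgG tumors in Trps1.

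Among genes whose mean FPKM was 5 or more, the 10 with the largest difference in the direction of the chromosome were St3gal1, Lalba, Deptor, Mettl7a1, Adcy8, Matn2, Peg13, Cyb5r3, Shisa8 and Slc38a2, from 2.23 down to 1.22. St3gal1 (ENSMUSG00000013846, chr15:67102875-67176830, minus strand), a sialyltransferase that caps O-linked glycans, was at 5.36, 6.11 and 9.60 FPKM in the IgG and at 7.10, 2.86 and 32.3 FPKM in the anti-PD-1 tumors. Anti-PD-1 replicate 3 was 3.36-fold above the next highest tumor. Cyb5r3, a cytochrome b5 reductase, was at 32.1, 32.1 and 38.6 FPKM in the IgG and at 42.0, 36.6 and 90.7 FPKM in the anti-PD-1 tumors. It too stood apart in anti-PD-1 replicate 3, 2.16-fold above the next.

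Mettl7a1, a putative methyltransferase, was at 25.3 FPKM in anti-PD-1 replicate 3 and between 5.69 and 10.4 FPKM in the others, and its reads could be shared with its close copies. Adcy8, an adenylyl cyclase, was at 12.5 FPKM in anti-PD-1 replicate 3 and between 0.971 and 6.42 FPKM in the others. Peg13, an imprinted RNA gene inside Trappc9, was at 14.3 FPKM against 2.73 to 6.12 FPKM. Each of these was the highest in anti-PD-1 replicate 3. Lalba, the α-lactalbumin gene, was at 177, 864 and 1238 FPKM in the IgG and at 77.1, 30.2 and 577 FPKM in the anti-PD-1 tumors. It ranged over all tumors, and anti-PD-1 replicate 3 was only the third highest and 0.58 below the median of the IgG tumors. Its difference of 1.71 came to 0.57 without anti-PD-1 replicate 1 or 2. That of Shisa8 moved from 1.29 to 0.77 without IgG replicate 1 or 2 or anti-PD-1 replicate 2.

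Slc38a2 (ENSMUSG00000022462, chr15:96687392-96699730, minus strand), a transporter of neutral amino acids, was at 55.2, 29.3 and 36.3 FPKM in the IgG and at 37.8, 60.7 and 89.4 FPKM in the anti-PD-1 tumors. It was the highest in anti-PD-1 replicate 3, 1.47-fold above the next. The 10 genes with the largest difference against the chromosome were Pvalb, Ly6d, A4galt, Tob2, Gm15387, Faim2, Trps1, Fmnl3, Capsl and Cpq, from -3.81 to -0.32.

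Pvalb, a calcium-binding protein of fast skeletal muscle, was at 0, 32.7 and 0.354 FPKM in the IgG and at 13.1, 36.2 and 0 FPKM in the anti-PD-1 tumors. It was at or near 0 in the same 3 tumors in which the sum of the 4 skeletal muscle markers was 3.80 FPKM or less, and its difference of -3.81 came to -2.11 with IgG replicate 2 left out, or to -2.12 with anti-PD-1 replicate 2 left out. Ly6d (ENSMUSG00000034634, chr15:74762056-74763620, minus strand), a Ly6 surface protein of epithelia and early B cells, was at 12.7, 39.4 and 45.5 FPKM in the IgG and at 10.2, 2.16 and 1.75 FPKM in the anti-PD-1 tumors. It was lowest in anti-PD-1 replicates 2 and 3.

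A4galt, the enzyme that makes the glycolipid Gb3, was at 6.24, 18.4 and 17.8 FPKM in the IgG and at 6.72, 1.67 and 2.01 FPKM in the anti-PD-1 tumors. Tob2, an antiproliferative protein, was at 11.8, 9.41 and 11.8 FPKM in the IgG and at 9.56, 4.83 and 5.36 FPKM in the anti-PD-1 tumors. In both genes anti-PD-1 replicates 2 and 3 were the lowest of the 6 tumors. Fmnl3, a formin, and the pseudogene Gm15387 were also lowest in these 2 tumors, whereas Cpq, a carboxypeptidase, and Capsl were below the IgG tumors in all 3 anti-PD-1 tumors. Faim2, an inhibitor of Fas-induced death, was at 6.64 FPKM in anti-PD-1 replicate 3 and ranged from 4.05 to 13.2 FPKM in the others. With each other tumor left out the differences ranged from -0.74 to -0.43 in Faim2, -0.55 to -0.24 in Capsl and -0.40 to -0.21 in Cpq, smallest without IgG replicate 3.

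The sequences around the starts of Slc38a2, which was highest in anti-PD-1 replicate 3, and of A4galt and Tob2, which were below the median of the other tumors there, are given to set a gene that followed the chromosome beside 2 that did not. They are the 250 bases before and 50 bases after the RefSeq start on GRCm38.p6, at chr15:96699679-96699978, chr15:83251680-83251979 and chr15:81858277-81858576, all on the minus strand. They are written 5′ to 3′ with the GC box GGGCGG, or its reverse complement CCGCCC, in capitals.
Slc38a2: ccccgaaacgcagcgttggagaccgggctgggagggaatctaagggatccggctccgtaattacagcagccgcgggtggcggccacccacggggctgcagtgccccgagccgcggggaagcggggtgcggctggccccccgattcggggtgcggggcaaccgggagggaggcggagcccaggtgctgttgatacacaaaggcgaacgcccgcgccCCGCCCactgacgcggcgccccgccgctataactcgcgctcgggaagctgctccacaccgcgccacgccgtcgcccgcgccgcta
A4galt: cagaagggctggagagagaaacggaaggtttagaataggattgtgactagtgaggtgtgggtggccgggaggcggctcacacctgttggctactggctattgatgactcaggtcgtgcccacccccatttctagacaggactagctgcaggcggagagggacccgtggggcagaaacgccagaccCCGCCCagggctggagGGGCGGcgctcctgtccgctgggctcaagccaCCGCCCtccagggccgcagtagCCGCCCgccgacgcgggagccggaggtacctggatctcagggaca
Tob2: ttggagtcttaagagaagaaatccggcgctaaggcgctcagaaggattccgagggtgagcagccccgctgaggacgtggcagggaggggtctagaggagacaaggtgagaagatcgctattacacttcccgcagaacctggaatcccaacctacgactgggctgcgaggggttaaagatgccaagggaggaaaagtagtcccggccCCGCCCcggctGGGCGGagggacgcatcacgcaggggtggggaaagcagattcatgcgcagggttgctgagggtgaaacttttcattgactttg
Slc38a2 holds 1 GC box, A4galt 4 and Tob2 2, and 35.7% of 32851 promoters of this length hold at least 1 on either strand. None of the 3 windows holds an E-box CACGTG, the letters that Myc with Max can bind, which 7.15% of all promoters hold, nor TATAAA or CCAAT (13.6% and 37.4%). A match of letters is not a binding site. The RefSeq start of Tob2 lies 470 bases from the start in the annotation used for the other coordinates.

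The counts of chromosome 15 gene groups stand beside 85.9% of all 630 genes higher in anti-PD-1 replicate 3, 55.1% highest there and a median difference of 0.40. For lists on other chromosomes the shares over all tested genes there were 48.4% higher, 14.3% highest and 16.9% lowest. No group was tested against these. Of genes of ribosomes and translation, 18 of 18 were higher, 15 of them at their highest level, with a median of 0.48. Rpl8, a protein of the large ribosomal subunit, was at 543, 430 and 597 FPKM in the IgG and at 685, 628 and 848.95 FPKM in the anti-PD-1 tumors. The highest was anti-PD-1 replicate 3. Rpl3, another such protein, was at 246, 267 and 228 FPKM and at 203, 199 and 229 FPKM, and with a difference of 0.02 hardly followed. Rpl37 had a difference of 0.72 and Pabpc1, the poly(A)-binding protein, 0.18.

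Genes of mitochondria and metabolism were higher in 25 of 26 cases, 20 at their highest level, with a median of 0.56. Cox14, an assembly factor of cytochrome c oxidase, was at 84.5, 83.9 and 77.6 FPKM in the IgG and at 75.5, 81.0 and 138 FPKM in the anti-PD-1 tumors. Anti-PD-1 replicate 3 stood alone. Atp5g2, a subunit of ATP synthase, had a difference of 0.50, Ndufa6 of complex I 0.44 and Oxct1, an enzyme of ketone body use, 0.38. The exception was Chkb, a choline kinase, at 0.481 FPKM with a difference of -0.06.

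Of genes of DNA repair, replication and division, 14 of 19 were higher, 9 at their highest level, with a median of 0.19. Ncaph2, of condensin II, differed by 0.45, Rangap1 by 0.42 and Nipbl, the cohesin loader, by 0.32. The 5 lower genes were Dscc1, Recql4, Racgap1, Troap and Smug1. Of 9 proliferation markers on other chromosomes, 8 were lower in anti-PD-1 replicate 3 and 3 were at their lowest, with a median of -0.55, and their sum was 134 FPKM, against 134 to 222 FPKM in the other tumors. Whether this played a part in the differences of the division genes was not tested.

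Ligands and receptors were higher in 15 of 20 cases, 9 at their highest level, with a median of 0.29. Nr4a1, an orphan nuclear receptor, was at 41.3, 18.3 and 57.7 FPKM in the IgG and at 73.3, 65.2 and 88.8 FPKM in the anti-PD-1 tumors. All anti-PD-1 tumors were above the IgG tumors. Plxnb2, a semaphorin receptor, differed by 0.51, Rarg, a retinoic acid receptor, by 0.63 and Acvr1b, an activin receptor, by 0.37. The 5 lower genes were Pdgfb, Wnt7b, Angpt1, Ptger4 and Npr3. Wnt7b, a Wnt ligand, was at 5.25, 3.32 and 0.853 FPKM in the IgG and at 4.19, 1.71 and 0.567 FPKM in the anti-PD-1 tumors, lowest in anti-PD-1 replicate 3.

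All 14 matrix and stroma genes were higher in anti-PD-1 replicate 3, 5 at their highest level, with a median of 0.62. The medians of this list were 0.16, -0.97 and -0.89 in the IgG tumors and 0.43 and -0.25 in anti-PD-1 replicates 1 and 2. Its sum was 142, 90.9 and 70.7 FPKM in the IgG and 150, 89.3 and 164 FPKM in the anti-PD-1 tumors. Col14a1, a fibril-associated collagen, was at 6.65, 2.54 and 3.77 FPKM in the IgG and at 9.94, 11.8 and 10.1 FPKM in the anti-PD-1 tumors. All 3 anti-PD-1 tumors were above the IgG tumors, with replicate 2 the highest. Lgals1, a galectin, differed by 0.15, Ext1, an enzyme of heparan sulfate synthesis, by 0.60 and Chadl by 0.64. Fibroblast markers on other chromosomes were higher in 6 of 7 cases in anti-PD-1 replicate 3 with a median of 0.15, and their sum was 206 FPKM there, 344 and 92.6 FPKM in anti-PD-1 replicates 1 and 2, and between 80.9 and 240 FPKM in the IgG tumors. Their part in the matrix genes was not tested. Of 5 endothelial markers, 1 was higher in anti-PD-1 replicate 3.

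Of 15 genes of blood cells, 13 were higher in anti-PD-1 replicate 3, 8 at their highest level, with a median of 0.33. Apobec3, an antiviral deaminase, differed by 0.37, Irak4, a kinase of Toll-like receptor signaling, by 0.34, Nckap1l by 0.47 and Rac2, a GTPase of white blood cells, by 0.44. The 7 macrophage markers, all on other chromosomes, were also all higher there with a median of 0.60, and 4 were at their highest level. Their sum was 482, 547 and 351 FPKM in the IgG and 698, 374 and 739 FPKM in the anti-PD-1 tumors. No marker of this list was at 0. The part of macrophages in the blood cell genes was not tested.

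Of 5 keratins, 3 were higher. Krt8, the type II keratin of luminal cells, was at 689, 542 and 431 FPKM in the IgG and at 648, 555 and 1041 FPKM in the anti-PD-1 tumors. Its partner Krt18 was at 959, 709 and 685 FPKM and at 756, 895 and 1385 FPKM. Both were highest in anti-PD-1 replicate 3 (0.91 and 0.87), whereas Krt7 differed by 0.10 and Krt5, a basal keratin, by -0.40. Krt7 was at 23.4, 17.7 and 8.68 FPKM in the IgG and at 33.6, 43.7 and 24.9 FPKM in the anti-PD-1 tumors, so its direction rested on single tumors. Of the 8 epithelial markers, the 6 on other chromosomes included 4 that were lower in this tumor, and the 3 basal markers were all lower, at 0.722 FPKM in sum.

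All 7 genes of mammary secretion were higher, 3 at their highest level, with a median of 0.67. Their sum was 762, 1353 and 2399 FPKM in the IgG and 925, 863 and 1752 FPKM in the anti-PD-1 tumors. Aqp5, a water channel, was at 525, 424 and 1108 FPKM in the IgG and at 784, 765 and 1082 FPKM in the anti-PD-1 tumors, with IgG replicate 3 the highest. Fkbp11, of the secretory pathway, differed by 1.00 and Lima1 by 0.20. Of the Ly6 family 2 of 7 were higher, none at its highest level, with a median of -0.17. Ly6e, the most abundant, differed by 0.24, Ly6c1 by 0.33 and Ly6a by -0.19, and since these genes are similar in sequence their reads could be shared. Ly6e ranged from 411 to 730 FPKM over the tumors and Ly6a from 12.7 to 43.0 FPKM. The sizes of these 2 differences depended on single tumors. Of the Hoxc genes only Hoxc6 was tested (0.26).

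**Figure D5:**
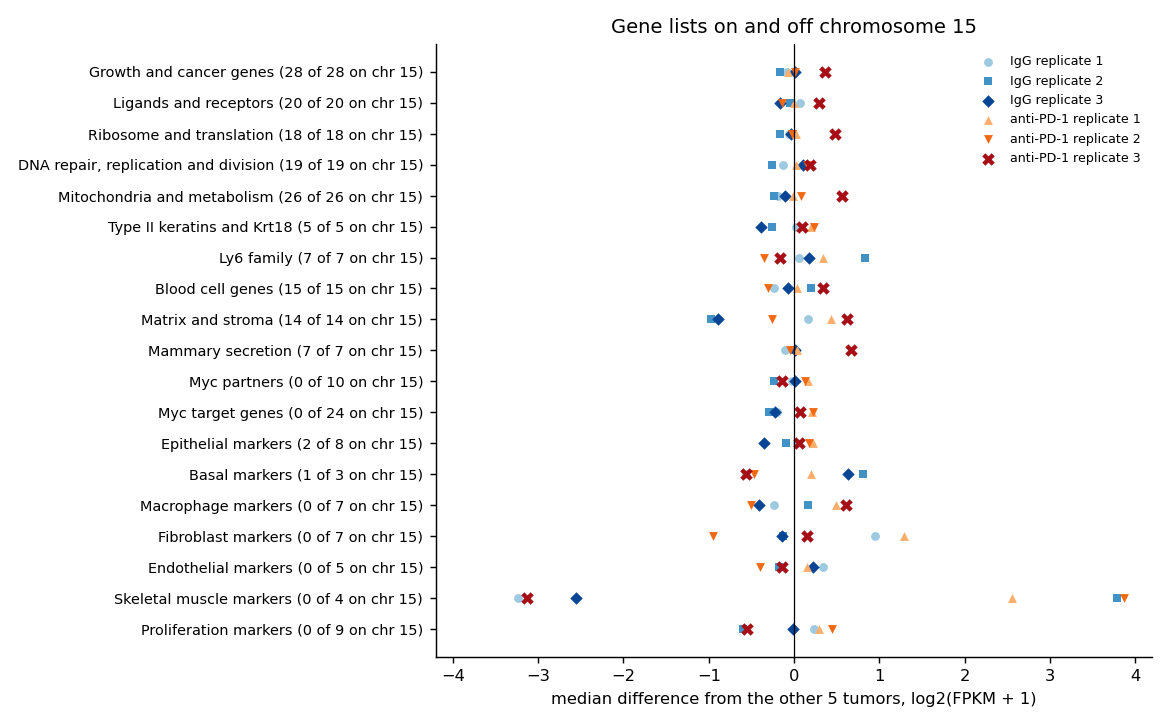
Median difference of each tumor from the median of the other 5 tumors, in log2(FPKM + 1), for lists with at least 3 tested genes, with the number of genes on chromosome 15 beside each name and 1 symbol per tumor. Anti-PD-1 replicate 3 is the highest symbol in 8 of the 10 lists of chromosome 15 genes shown, the keratins and the Ly6 family being the others, and also in the macrophage markers, but in no other list of genes of other chromosomes.

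Genes on other chromosomes that are tied to Myc lay on both sides of the other tumors. Of 10 Myc partners, 3 lay above and 7 below the other tumors in anti-PD-1 replicate 3, with a median of -0.14. Max, with which Myc binds DNA, was at 22.2, 20.5 and 20.5 FPKM in the IgG and at 25.1, 21.1 and 27.4 FPKM in the anti-PD-1 tumors, and anti-PD-1 replicate 3 was the highest (0.37). Of 24 Myc target genes, 14 were higher and 10 lower, with a median of 0.07. The medians of these targets were -0.20, -0.30 and -0.23 in the IgG tumors and 0.22 and 0.22 in anti-PD-1 replicates 1 and 2. Anti-PD-1 replicate 3 was thus below the other anti-PD-1 tumors and above the IgG tumors. Ldha, lactate dehydrogenase, differed by 0.76 and Npm1, a nucleolar protein, by -0.35.

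Anti-PD-1 tumors were then compared with IgG tumors as groups, with limma on log2(FPKM + 1) over all 15069 genes. On chromosome 15, 35 genes were higher in anti-PD-1 tumors past both thresholds, an unadjusted p under 0.05 and at least a 1.5-fold change, and 12 were lower. The study used these thresholds together with a minimum raw score, which was not applied here. These are 5.56% and 1.90% of its genes, against 3.9% and 4.53% of all tested genes. No gene of the chromosome had a limma adjusted p under 0.05 (smallest 0.344), nor did any with voom on the recovered reads, and 57 higher and 16 lower genes had an unadjusted p under 0.05, 9.05% and 2.54% against 6.22% and 6.05% of all tested genes. Over the chromosome the log2 fold changes had a median of 0.17, or of 0.16 relative to the median of the genome.

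These counts depended on anti-PD-1 replicate 3. Without it 15 genes (2.38%, against 3.13% of all tested genes) were higher and 21 (3.33%, against 3.08%) lower past both thresholds, shares near the background, and the relative median was 0.03. The counts moved by over 1.5 times with other tumors left out as well, and those over all tested genes moved with them in part. Leaving out IgG replicate 2 gave 19 higher genes (3.02%, against 2.43% of all tested genes) and leaving out anti-PD-1 replicate 1 gave 57 (9.05%, against 4.74%). The lower genes came to 20 with IgG replicate 1 left out (3.17%, against 8.18%) and to 7 with anti-PD-1 replicate 2 left out (1.11%, against 3.36%). Every anti-PD-1 tumor was above every IgG tumor in 82 genes (13.0%, against 9.3% of all tested genes) and below in 18 (2.86%, against 8.75%).

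The groups differed in Myc by less than the spread between tumors, at 24.5 ± 5.95 FPKM (SD, n = 3) with anti-PD-1 and 23.6 ± 1.70 FPKM (SD, n = 3) with IgG. The log2 fold change of Myc was 0.04 (standard error 0.19, limma adjusted p = 0.953, two-sided exact permutation test p = 1), and -0.14 without anti-PD-1 replicate 3. Of the growth genes, Grhl2, a transcription factor of epithelia, was higher in anti-PD-1 tumors by 0.54 at an unadjusted limma p of 0.0322, and Trps1 and Cbx7 were lower by a log2 fold change of -0.83 and -0.51 at unadjusted limma p of 0.00126 and 0.0358. Trps1 was past both thresholds here and under all alternatives. Cbx7 was past them as well on log2(FPKM + 0.1) (-0.67, unadjusted limma p of 0.0339) and with voom (-0.70, unadjusted limma p of 0.0277), but not in the fit on log2(FPKM + 1). Both the Grhl2 and the Cbx7 call rested on single tumors. Grhl2, which was short of 1.5-fold, had unadjusted limma p of 0.102 and 0.105 without anti-PD-1 replicates 3 and 2, 0.0616 and 0.092 without IgG replicates 2 and 3, and 0.0571 with the replicate number as a block, and it was past both thresholds without IgG replicate 1 or anti-PD-1 replicate 1. Cbx7 had unadjusted limma p between 0.0525 and 0.106 with any tumor but IgG replicate 1 left out. Its unadjusted limma p was 0.0549 without a filter on low FPKM and 0.0673 with the block. Cbx7 was past both thresholds without IgG replicate 1 (-0.66). Laptm4b was past them only without IgG replicate 1 (1.09, unadjusted limma p of 0.0205) or anti-PD-1 replicate 1 (1.08, unadjusted limma p of 0.0232). Ptk2 was past them only without anti-PD-1 replicate 1 (0.61, unadjusted limma p of 0.0356).

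Of the higher genes without overlap between the groups, the 3 with the lowest p were Celsr1, Snord83b and Smdt1. Celsr1 (ENSMUSG00000016028, chr15:85898929-86033777, minus strand), a planar cell polarity cadherin, was at 0.933, 0.564 and 0.908 FPKM in the IgG and at 2.57, 3.29 and 4.19 FPKM in the anti-PD-1 tumors. The groups were well apart (log2 fold change 1.26, standard error 0.21). The added 1 understates the change of such a low gene, and with 0.1 added it was 1.94. Smdt1, a subunit of the mitochondrial calcium uniporter, was at 29.6, 24.99 and 26.3 FPKM in the IgG and at 47.7, 46.5 and 56.1 FPKM in the anti-PD-1 tumors (log2 fold change 0.87, standard error 0.15). In both genes all anti-PD-1 tumors were high, and not replicate 3 alone. Snord83b, a small nucleolar RNA inside Rpl3, was at 0.483, 1.77 and 1.74 FPKM and at 7.07, 6.58 and 4.93 FPKM. With an exon length of only 94 bases, these levels rest on few recovered reads. Each IgG library held between 1 and 4, and each anti-PD-1 library between 11 and 17. The reads of Snord83b could not be told apart from those of its host, which lies on the same strand.

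The 3 lower genes were Trps1, Gm36677 and Ly6d. Trps1 was at 29.3 ± 1.40 FPKM (SD, n = 3) in anti-PD-1 and 53.5 ± 8.14 FPKM (SD, n = 3) in IgG tumors. Ly6d was at 4.72 ± 4.79 FPKM (SD, n = 3) and 32.6 ± 17.5 FPKM (SD, n = 3), a log2 fold change of -2.67 (standard error 0.65). Gm36677, a lincRNA gene, was at 0.835, 1.86 and 1.29 FPKM in the IgG tumors and was listed at 0 in all anti-PD-1 tumors. Its mean FPKM of 0.664 passed the limit of 0.5 only through the IgG tumors. It is named because its p was among the 3 smallest, and nothing is read from that p. Of the 12 lower genes past both thresholds 1, and of the 18 below without overlap 6, had a mean FPKM under 0.5 in anti-PD-1 tumors, which leaves 11 and 12. Of the 35 higher genes 1 was under 0.5 in IgG tumors, and of the 82 above without overlap none. The other 5 genes each had a limma adjusted p of 0.344 and a two-sided exact permutation p of 0.1, the smallest that 3 tumors against 3 can give. For Snord83b both values rest on the few reads given above.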

How the data were processed

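FPKM per Ensembl gene ID and tumor, as deposited by the authors, was used. By the submitters' processing notes and the methods of the study, the authors checked reads with FastQC 0.11.9, used cutadapt 3.5 for trimming and RSEM 1.3.1 with Bowtie2 2.4.1 on mm10 for counting, and tested counts with their DESeq2 1.36.0. How the authors made FPKM from the counts is not given in the sources used here, nor whether strand was used. A legend describes the RNA of a group as pooled, the labels name 3 replicates per group, and how many tumors went into each is not settled. AP20187 is given biweekly in the labels and triweekly in the methods.

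Of 54532 IDs, 54409 matched GENCODE M21 (GRCm38, Ensembl 96), which gave positions. FPKM times exon length fell within 0.1 of a whole number of reads in 27844 of 28732 IDs above 0, among them all 630 members. Values were scaled by median-of-ratios factors and taken as log2(FPKM + 1). Genes at a mean FPKM of 0.5 or more were fitted with limma 3.58.1 (eBayes with trend, two-sided, Benjamini-Hochberg) in R 4.3.3 on the whole table, and the fit was tested on simulated data. Tables and figures were made in Python 3.11.15 (pandas 2.3.3, numpy 2.4.6, matplotlib 3.10.9). No tumors held identical values (correlations of log2 values, 0.892 to 0.958).

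The members and all gene lists were chosen with earlier results of these data known. Genes named are the growth and cancer list, the 10 largest differences in each direction at a mean FPKM of 5 or more, the 3 smallest p in each direction without overlap, up to 4 abundant members and exceptions of other lists, and genes beside the limit of 0.5. Of the growth and cancer list, 1 gene is counted but not reported here. Arc, Wnt7b, Chrac1, Gm39556 and the run of 5 genes in the Ly6 cluster with its neighbors were picked after their values were seen. Alternatives were the value added, the filter, scaling, trend, replicate block, voom on recovered reads, reference tumors, protein-coding genes only, and leaving out each tumor. Promoters come from RefSeq (GRCm38.p6), which matched 304 of 630 members, so no share over members is given.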

Additional observations from a re-analysis of the deposited data

How the results depend on the processing

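Anti-PD-1 replicate 3 kept a positive median difference on chromosome 15 under every alternative run. It was 0.48 with log2(FPKM + 0.1), and 0.20 with 71.5% of genes higher without a filter on low FPKM, which brings in genes at or near 0. With each other tumor left out it was 0.40 to 0.42, with 84.4% to 86.7% of genes higher. Counts of genes past both thresholds between the groups ranged, with each tumor left out, from 15 to 57 higher and from 7 to 21 lower, and the relative median from 0.03 to 0.23. With the replicate number as a block, 42 genes were higher and 14 lower (6.67% and 2.22%, against 4.40% and 4.45% of all tested genes). The labels do not say whether the numbers pair the tumors. Deviations of same-numbered tumors correlated at -0.164, 0.00508 and 0.194, and 2 of 6 tumors correlated best with their own number. These values cannot settle whether tumors were paired. Limma's voom on recovered reads gave 40 and 15 (6.35% and 2.38%, against 4.44% and 5.84%). Signs turned for several values. These were the group fold change of Myc (-0.031 after quantile normalization and, with each tumor left out, -0.14 to 0.16, the lowest without anti-PD-1 replicate 3) and the differences in anti-PD-1 replicate 3 of Rad21 (-0.022 after quantile normalization), of Trps1, Cbx7, Sp1 and Asap1 against the other 2 anti-PD-1 tumors (0.11, 0.11, 0.18 and -0.06), of Atf1 and Lalba against the IgG tumors (-0.04 and -0.58), of Pim3 with each tumor left out (-0.30 to 0.08, positive without IgG replicate 1 or anti-PD-1 replicate 1), and of Sp1 with each tumor left out (-0.09 to 0.08) and at a mean FPKM of at least 2 (0.0091). The cause was not tested. Of 46 named differences in anti-PD-1 replicate 3, 17 moved by over 1.5 times with a tumor left out. Of all single-gene values under the alternatives, 704 moved by less than their spread or kept their side, 11 moved further and 4 reversed. Of the main results, counted separately, 61 values stayed and 9 moved further. With 3 tumors per group, no exact permutation test could go below 0.1, and reads of overlapping or similar genes could not be separated.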
